A study of Homo sapiens with 6 samples.

Results

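The genes of the cytosolic ribosomal proteins and of their L-type paralogs were examined in human HL60 cells after akirin2 knockout (KO). Members were the genes named RPSA, RPLP0, RPLP1 or RPLP2, or named RPL or RPS followed by a digit, without processed pseudogenes, readthrough genes, the S6 kinases (RPS6K) and the Y-linked RPS4Y copies. The rule gave 84 of the 17499 genes of the table, of which 52 belonged to the large (60S) and 32 to the small (40S) subunit. Of these, 77 were main genes and 7 were L-type paralogs, which are second gene copies with an L in the name (RPL3L, RPL7L1, RPL22L1, RPL26L1, RPL36AL, RPL39L and RPS27L). The rule used names only and no measured value.

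A ribosome holds about equal numbers of each protein, so that the many genes behind it, spread over nearly all chromosomes, must be expressed in balance. Most of their mRNAs start with a C followed by a stretch of pyrimidines, the 5′ terminal oligopyrimidine (TOP) motif, through which mTOR and the protein LARP1 control their translation and stability. Proliferating cells give a large part of their mRNA to this group, and several paralogs replace the main protein in particular tissues.

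HL60 is an established human promyelocytic leukaemia line, used as a model of neutrophil precursors. The akirin2 KO cells were transfected with Cas9 protein bound to a synthetic guide RNA against akirin2, a gene of a nuclear cofactor, and the wild-type (WT) cells with SpCas9 alone, and both were then kept in the same medium. KO cells were an edited pool that was not expanded from single clones, so that unedited cells remained among them. RNA was sequenced from 3 replicates of each group (KO1 to KO3 and WT1 to WT3). The methods of the study call them biological replicates. Whether they were cultured separately is not stated in the sources used here, and p-values therefore measure only how far these libraries spread, which may be technical. Fold changes are given as KO over WT on the log2 scale with their standard error (SE).

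Libraries held 36096459 to 47607520 reads in KO and 41419318 to 52244122 in WT. AKIRIN2, the targeted gene, was measured first and had 1613, 1731 and 1651 normalized counts in KO1 to KO3, against 2378, 2450.4 and 2420.2 in WT1 to WT3 (log2 fold change -0.54 ± 0.049, adjusted p = 1.32e-08, limma), and the groups did not overlap. The RNA level does not give the share of edited alleles. All 7 promyelocyte markers were listed, and together they held 2.36 to 2.45% of reads in KO, against 0.763 to 0.798% in WT. The erythroid markers were not listed, and lists of T, B, megakaryocyte, epithelial and fibroblast markers held at most 0.0099% of reads in KO and 0.0118% in WT. The fibroblast marker FN1 had 4609 normalized counts in WT1, against 395 in WT2 and 115 in WT3, and 680 in KO3, against 184 in KO1 and 209 in KO2. COL1A1 and the epithelial marker KRT18 were also highest in WT1, while COL1A2 and COL3A1 were highest in KO2. A fit without WT1 and KO3 is given among the alternatives. The part of the promyelocyte genes in the results on ribosomal proteins was not tested. WT3 stood apart from WT1 and WT2 in these genes, and values without it are given where it decides a result. Normalized counts are read counts scaled by a factor for the size of the library, and are relative to the other genes. In bulk RNA, fewer cells that express a gene cannot be told apart from less of its RNA per cell.

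Windows of 30 bases around the annotated transcription start are shown for the members on which the results turn, since the pyrimidine stretch of the start distinguishes most of this family. The sequences are those of RefSeq on GRCh38.p14, read 5′ to 3′ on the strand of the gene, and the 16th base is the annotated start. Capitals mark a run of at least 5 C or T letters that begins with C and lies within 5 bases of the start. Of the main genes that were lower in KO, RPL3, RPLP0, RPS23, RPL13A, RPS6, RPS27, RPL36A and RPL26 are shown. Lower members without such a run (RPL6, RPL9, RPL15, RPL27, RPS15 and RPS29) are not shown.
RPL3, chr22:39319609-39319638, minus strand: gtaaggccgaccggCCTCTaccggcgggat
RPLP0, chr12:120201097-120201126, minus strand: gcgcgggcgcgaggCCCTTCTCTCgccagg
RPS23, chr5:82278340-82278369, minus strand: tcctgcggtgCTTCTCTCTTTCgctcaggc
RPL13A, chr19:49487593-49487622, plus strand: cgacaaaaCCTCCTCCTTTTCCaagcggct
RPS6, chr9:19380222-19380251, minus strand: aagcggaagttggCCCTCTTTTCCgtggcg
RPS27, chr1:153990747-153990776, plus strand: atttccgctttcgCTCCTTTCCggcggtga
RPL36A, chrX:101390996-101391025, plus strand: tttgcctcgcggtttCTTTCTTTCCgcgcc
RPL26, chr17:8383179-8383208, minus strand: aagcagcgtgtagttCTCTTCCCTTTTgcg

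The windows of some members that were not lower in KO are given beside them. RPL22L1, which was not called and holds a run by the same definition, is not shown. RPS26, RPS27L, RPL36AL, RPL26L1 and RPL7L1 were higher, and RPL21 and RPS4X were not called. RPL26L1 has annotated starts at 2 places.
RPS26, chr12:56041903-56041932, plus strand: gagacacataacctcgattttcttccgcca
RPS27L, chr15:63157463-63157492, minus strand: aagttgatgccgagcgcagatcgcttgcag
RPL36AL, chr14:49620612-49620641, minus strand: ctgtttCTTCCCTTTCCTgttaggcgagag
RPL26L1, chr5:172958714-172958743, plus strand: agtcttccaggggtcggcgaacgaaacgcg
RPL26L1, chr5:172958865-172958894, plus strand: ggcggggcggcggccacaaacccgcaggca
RPL7L1, chr6:42879601-42879630, plus strand: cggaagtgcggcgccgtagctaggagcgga
RPL21, chr13:27251543-27251572, plus strand: cggccccgCCTCTTTCCTTTCggccggaac
RPS4X, chrX:72277234-72277263, minus strand: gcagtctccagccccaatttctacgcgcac

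The members took a smaller share of the reads in KO cells. They held 15.1, 15.6 and 15.3% of the listed reads in KO1 to KO3, against 22.4, 22.3 and 20.9% in WT1 to WT3, so that the groups did not overlap. The large subunit held 9.43 to 9.73% in KO, against 13.2 to 14.1% in WT, and the small subunit 5.70 to 5.90% in KO, against 7.72 to 8.33% in WT. The ratio of large to small subunit reads was 1.65 in each KO library and 1.69 to 1.71 in WT. The 7 paralogs went the other way, with 0.0879 to 0.0923% of reads in KO, against 0.0572 to 0.0620% in WT. Among the 50 genes with the most reads, 24 to 25 were members in KO libraries, against 30 to 31 in WT libraries.

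**Figure D1:**
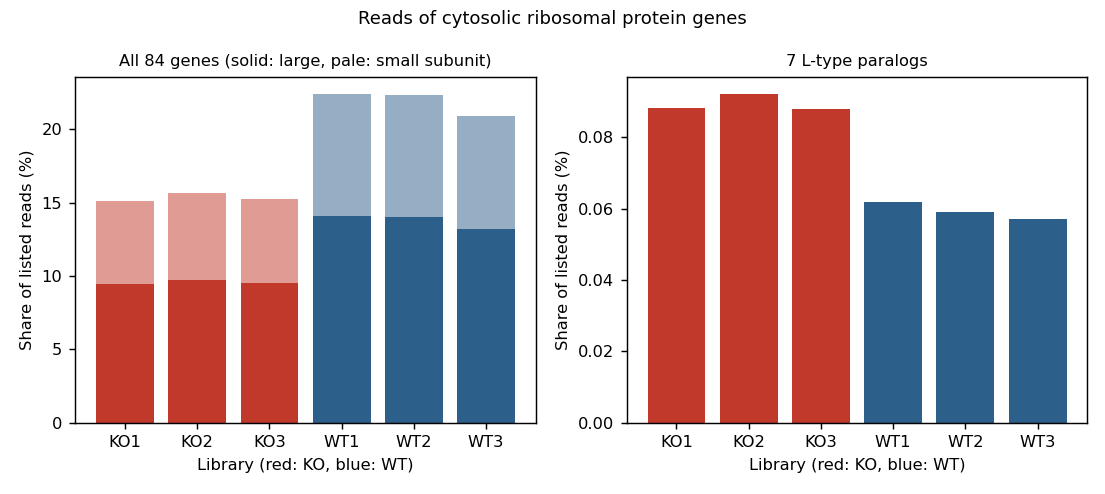
Share of the listed reads (%) held by the 84 members (left, solid: large subunit, pale: small subunit) and by the 7 L-type paralogs (right) in each library, with KO in red and WT in blue. Members held 15.1 to 15.6% of reads in KO and 20.9 to 22.4% in WT, while the paralogs' share was higher in KO.

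Nearly all main genes were lower in KO. Of the 84 members, all of which were tested, 74 were lower, 5 were higher and 5 were not called (limma, adjusted p under 0.05). Over all 17425 genes tested, 60.6% were called, 30.3% lower and 30.3% higher. The median log2 fold change was -0.52 over the members, against -0.0066 over all genes tested. Values of the groups did not overlap for 73 members that were lower and 5 that were higher, against 32.5% and 32.7% of all genes in these directions. The fall was of modest size, since only RPL3 was past a log2 fold change of -1, and the 74 genes lay between -1.04 and -0.25. Under quantile normalization, which gives all libraries the same distribution of values, 66 members were lower (28.7% of all genes) and 8 higher (32.4% of all genes), and the median was -0.28. In that setting RPL27A, RPL21 and RPS4X were called higher, and RPLP2, RPL11, RPL35 and RPS18 had log2 fold changes just above 0 that were not called.

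**Figure D2:**
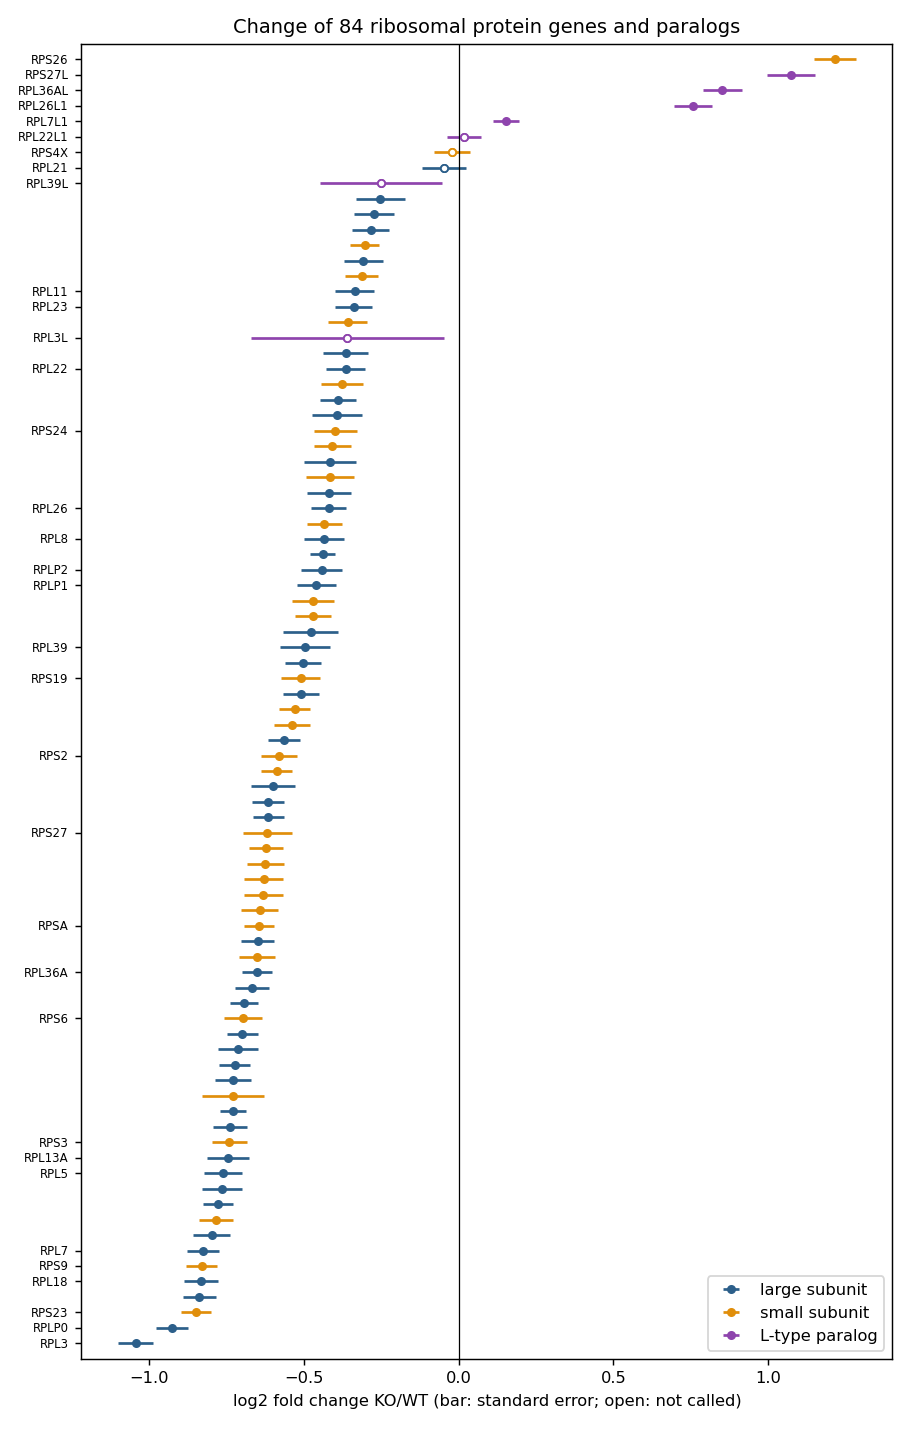
Log2 fold changes (KO/WT, x axis, with standard errors) of the 84 members, ordered from higher to lower, with the large subunit in blue, the small subunit in orange, L-type paralogs in purple, open points for members not called, and names beside some of the members. Main genes formed a continuous band from -0.25 to -1.04 with RPL21, RPS4X and RPS26 outside it, while under quantile normalization RPL21, RPS4X and RPL27A were higher.

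Both subunits had about the same median. Among large subunit main genes 45 of 46 were lower, with a median log2 fold change of -0.58, and among small subunit main genes 29 of 31 were lower, with a median of -0.58. The interquartile range over the 77 main genes was -0.71 to -0.41. The median ratio of KO to WT means over the 77 main genes was 0.668.

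RPL3, which lies close to the peptidyl transferase centre of the 60S subunit, had the most negative value. RPL3 (chr22:39312882-39320389 of GRCh38) had 158464, 159979 and 157474 normalized counts in KO1 to KO3, against 327436, 334651 and 318238 in WT1 to WT3 (log2 fold change -1.04 ± 0.057, adjusted p = 7.99e-12, limma). All KO libraries lay far below all WT libraries. RPLP0, the base of the acidic stalk on which GTPase translation factors bind, was next (chr12:120196686-120201235). RPLP0 had 100226, 101722 and 98171 normalized counts in KO1 to KO3, against 191993, 190415 and 187762 in WT1 to WT3 (log2 fold change -0.93 ± 0.052, adjusted p = 1.05e-11, limma), with little spread within either group. Its stalk partners fell less, RPLP1 with 176226, 180397 and 178950.0 in KO, against 250283, 262949 and 224835 in WT (log2 fold change -0.46 ± 0.063) and RPLP2 with 144406, 151729 and 147266 in KO, against 208444, 216263 and 179123 in WT (log2 fold change -0.44 ± 0.066). Neither RPLP1 nor RPLP2 overlapped between the groups, and RPLP2 was not called under quantile normalization.

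RPL18, a structural protein of the 60S subunit, also had a large fall, with 74695, 76848 and 74174 in KO, against 132614, 142205 and 127245 in WT (log2 fold change -0.83 ± 0.053). The most counted members of this subunit were RPL13A, a 60S surface protein that also acts as a translational silencer outside the ribosome, RPL8, a protein near the catalytic centre, RPL3 and RPLP1. RPL13A (chr19:49487554-49492308) had 242968, 251722 and 242405 normalized counts in KO1 to KO3, against 422249, 437694 and 376274 in WT1 to WT3 (log2 fold change -0.74 ± 0.068, adjusted p = 1.47e-08, limma). RPL8 had 240121, 241724 and 241201 in KO, against 327712, 347502 and 303777 in WT (log2 fold change -0.44 ± 0.064). KO and WT did not overlap for any of these 4 genes. Per kilobase of coding sequence, RPLP1 had the highest mean level of the members, with 522001 normalized counts in KO and 719363 in WT, and RPL13A had 403446 in KO and 676637 in WT.

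The large subunit proteins that bind and inhibit the p53 ligase MDM2 when they are not in a ribosome were all lower. RPL5, which forms the 5S RNA particle together with RPL11, had 116172, 123253 and 114955 in KO, against 209538, 206977 and 184413 in WT (log2 fold change -0.76 ± 0.06). RPL11 itself fell less, with 121618, 129504 and 123774 in KO, against 165004, 166615 and 142258 in WT (log2 fold change -0.33 ± 0.063). RPL23 had 80527, 85869.6 and 81415 in KO, against 111163, 107805 and 94879 in WT (log2 fold change -0.34 ± 0.059). The groups did not overlap for any of the 3 genes, and RPL11 lost its call and its sign under quantile normalization (log2 fold change 0.025).

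RPS23, a protein of the decoding centre, led the small subunit. RPS23 (chr5:82273358-82278577) had 31527, 32675 and 31410.1 normalized counts in KO1 to KO3, against 60108, 57964 and 54181 in WT1 to WT3 (log2 fold change -0.85 ± 0.048, adjusted p = 1.38e-11, limma), without overlap of the groups. RPS9, on the body of the 40S subunit near the entry of the mRNA, had 72680.5, 73997 and 73911 in KO, against 129466, 134616 and 127995 in WT (log2 fold change -0.83 ± 0.049). The most counted small subunit genes were RPS24, RPS2, RPS3 and RPS6. RPS6, the substrate of the S6 kinases (chr9:19375715-19380254), had 134451, 142637 and 133776 normalized counts in KO1 to KO3, against 232315, 229266 and 204750.0 in WT1 to WT3 (log2 fold change -0.70 ± 0.061, adjusted p = 8.59e-09, limma). RPS3, at the mRNA entry channel, had 135251, 135506 and 135192 in KO, against 226605, 237551 and 214526 in WT (log2 fold change -0.74 ± 0.057), and its 3 KO libraries were nearly identical. RPS2 had 163310.0, 163313 and 162466 in KO, against 241765, 257938 and 232587 in WT (log2 fold change -0.58 ± 0.058). RPS24 had 185945, 198350.0 and 185506 in KO, against 269324, 261500.0 and 222207 in WT (log2 fold change -0.40 ± 0.07), and it was not called under quantile normalization. RPS19, the gene most often mutated in Diamond-Blackfan anaemia, had 118196, 121510.0 and 119711 in KO, against 174263, 185291 and 153683 in WT (log2 fold change -0.51 ± 0.063). RPSA, also known as the laminin receptor, had 37879, 38416 and 37594 in KO, against 60631, 61457 and 56081 in WT (log2 fold change -0.64 ± 0.047). None of these small subunit genes overlapped between the groups.

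RPS26 was the only main gene called higher in KO, except under quantile normalization, where RPL21, RPS4X and RPL27A were called higher too. Its protein lies at the mRNA exit channel, where it touches the bases upstream of the start codon. RPS26 (chr12:56041351-56044697) had 20736, 21589 and 20729 normalized counts in KO1 to KO3, against 9789, 9823 and 7715 in WT1 to WT3, and all KO libraries lay far above all WT libraries. The log2 fold change was 1.21 ± 0.067 (adjusted p = 9.84e-12, limma), of the opposite sign to the other called main genes. Reads in RPS26 pseudogene entries of the table came to 0.169% of those in RPS26 and its pseudogenes together. TSR2, the chaperone that delivers RPS26 to the ribosome, had 1575, 1475 and 1543 in KO, against 1493, 1515 and 1394 in WT and was not called (log2 fold change 0.062 ± 0.054).

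RPL21 and RPS4X were the main genes that were not called. RPL21, a 60S protein, had 106924, 112166 and 107580.0 normalized counts in KO1 to KO3, against 121225, 120824 and 97219 in WT1 to WT3 (log2 fold change -0.047 ± 0.07, adjusted p = 0.579, limma), and WT3 lay under all KO libraries while WT1 and WT2 lay above them. RPS4X, the X-linked copy of the 40S protein RPS4, had 86613, 90250.5 and 87039 normalized counts in KO1 to KO3, against 93124, 93741 and 81393 in WT1 to WT3 (log2 fold change -0.021 ± 0.057, adjusted p = 0.771, limma), with the same order of libraries. Without WT3, RPL21 (log2 fold change -0.15, adjusted p = 0.00185) and RPS4X (-0.087, adjusted p = 0.0498) were called lower by limma, and RPS4X also after removal of a trend on GC content (-0.13, adjusted p = 0.0294). Both signs turned under equal library totals and, as called values, under quantile normalization. Among genes that were lower, only RPL32 overlapped between the groups, with 70229, 76708 and 70219 in KO, against 93210.3, 95519.7 and 71934 in WT (log2 fold change -0.25 ± 0.079), and its call was lost without WT1, without WT2, with DESeq2 and with a variance without a trend.

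**Figure D3:**
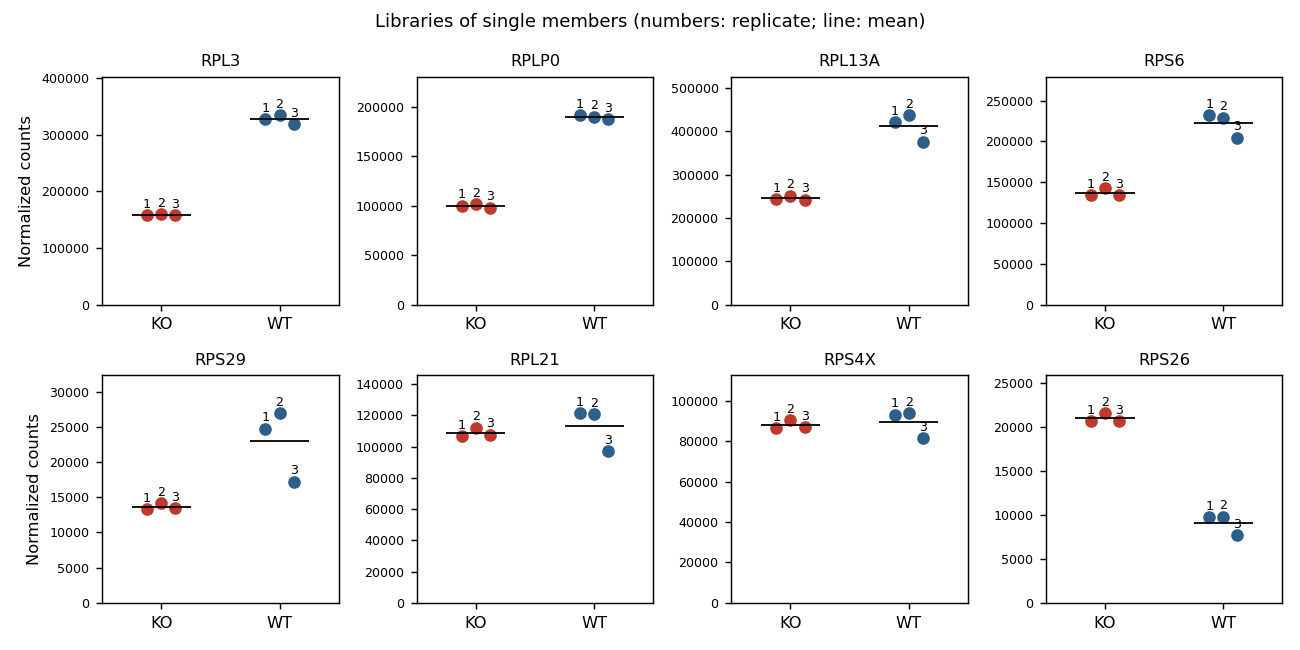
Normalized counts of 8 members in each library, with KO left of WT, numbers for the replicate and a line for the group mean. RPL3, RPLP0, RPL13A, RPS6 and RPS29 were lower in every KO library, RPS26 was higher, and for RPL21 and RPS4X the library WT3 lay under KO while WT1 and WT2 lay above (both signs turned under equal library totals and quantile normalization).

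None of the 7 L-type paralogs was called lower, 4 were higher and 3 were not called, so that the share called was near the 60.6% of all genes. RPS27L, a copy of RPS27 that p53 is known to induce (chr15:63125872-63158021), had 2437, 2511 and 2256 normalized counts in KO1 to KO3, against 1331, 1114 and 996 in WT1 to WT3 (log2 fold change 1.07 ± 0.078, adjusted p = 4.95e-10, limma). RPL36AL, an autosomal copy of the X-linked RPL36A (chr14:49618519-49620685), had 18908, 20287 and 19149.8 normalized counts in KO1 to KO3, against 11677, 11428 and 9378 in WT1 to WT3 (log2 fold change 0.85 ± 0.063, adjusted p = 7.15e-10, limma). RPL26L1 (chr5:172958729-172969771) had 2064, 2284 and 2082 normalized counts in KO1 to KO3, against 1367, 1278 and 1164 in WT1 to WT3 (log2 fold change 0.76 ± 0.062, adjusted p = 2.78e-09, limma). In these 3 genes every KO library was far above every WT library. RPL7L1, found in precursors of the 60S subunit, had 12999.7, 13138 and 12506 in KO, against 11749, 11475 and 11514 in WT, a small difference (log2 fold change 0.15 ± 0.041) that was not called after removal of a trend on GC content. RPL22L1 had 1928, 2097 and 2010.0 in KO, against 2109, 2013 and 1844 in WT (log2 fold change 0.018 ± 0.056, not called), and its groups overlapped. The tissue-restricted paralogs were near the lower limit of the table. RPL39L, known from testis, had 73.1, 87.4 and 72 in KO, against 97.6, 119 and 66.9 in WT, and RPL3L, known from striated muscle, had 20.1, 21.1 and 22.8 in KO, against 19.7, 32.6 and 32.6 in WT. Both overlapped between the groups and neither was called, although RPL39L was called lower without WT3 (log2 fold change -0.48).

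The main genes of these pairs were all lower. RPS27 had 22874, 24739.8 and 23213 in KO, against 39629.7, 40149.5 and 29829.9 in WT (log2 fold change -0.62 ± 0.079). RPL36A had 27525, 28612 and 27722 in KO, against 46338, 44709 and 40811 in WT (log2 fold change -0.65 ± 0.05), and RPL26 had 39196, 41645 and 39758 in KO, against 58104, 55134 and 48479 in WT (log2 fold change -0.42 ± 0.058). RPL7 had 98481, 102997 and 98836 in KO, against 182880.0, 173998 and 175159 in WT (log2 fold change -0.82 ± 0.053). RPL22 had 72044, 75868 and 72272 in KO, against 101230.0, 99408 and 83661 in WT (log2 fold change -0.36 ± 0.063), and RPL39 had 33426, 36217 and 33204 in KO, against 53729, 52629.7 and 39781 in WT (log2 fold change -0.49 ± 0.08). None of these main genes overlapped between KO and WT.

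In 6 of the 7 pairs the paralog had a higher share of the pair in every KO library than in any WT library. Since the main genes were lower, such a share rises even where the paralog does not change. RPL22L1 and RPL3L were not called (log2 fold change 0.018 and -0.36), and RPL7L1 changed by 0.15, against -0.82 for RPL7. RPS27L, RPL36AL and RPL26L1 were clearly higher themselves (1.07, 0.85 and 0.76). RPL36AL made up 40.7, 41.5 and 40.9% in KO, against 20.1, 20.4 and 18.7% in WT of the normalized counts of RPL36AL and RPL36A together. The share of RPS27L with RPS27 was 9.63, 9.21 and 8.86% in KO, against 3.25, 2.7 and 3.23% in WT. For RPL7L1 with RPL7 it was 11.7, 11.3 and 11.2% in KO, against 6.04, 6.19 and 6.17% in WT, and for RPL26L1 with RPL26 it was 5, 5.2 and 4.98% in KO, against 2.3, 2.27 and 2.34% in WT. RPL22L1 made up 2.61, 2.69 and 2.71% in KO, against 2.04, 1.98 and 2.16% in WT of its pair. KO and WT did not overlap in any of these 5 pairs. The change of the log2 ratio of paralog to main gene (KO minus WT) was 1.69 ± 0.098 (SE) for RPS27L, 1.502 ± 0.050 for RPL36AL, 1.18 ± 0.026 for RPL26L1, 0.98 ± 0.022 for RPL7L1, 0.68 ± 0.24 for RPL3L and 0.38 ± 0.040 for RPL22L1. In an exact two-sided permutation test each of these 6 pairs gave p = 0.1, the smallest p that 3 against 3 libraries allow (adjusted p = 0.117 over the 7 pairs). For RPL39L over RPL39 the change was 0.24 ± 0.13 and the libraries overlapped (exact permutation p = 0.3).

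**Figure D4:**
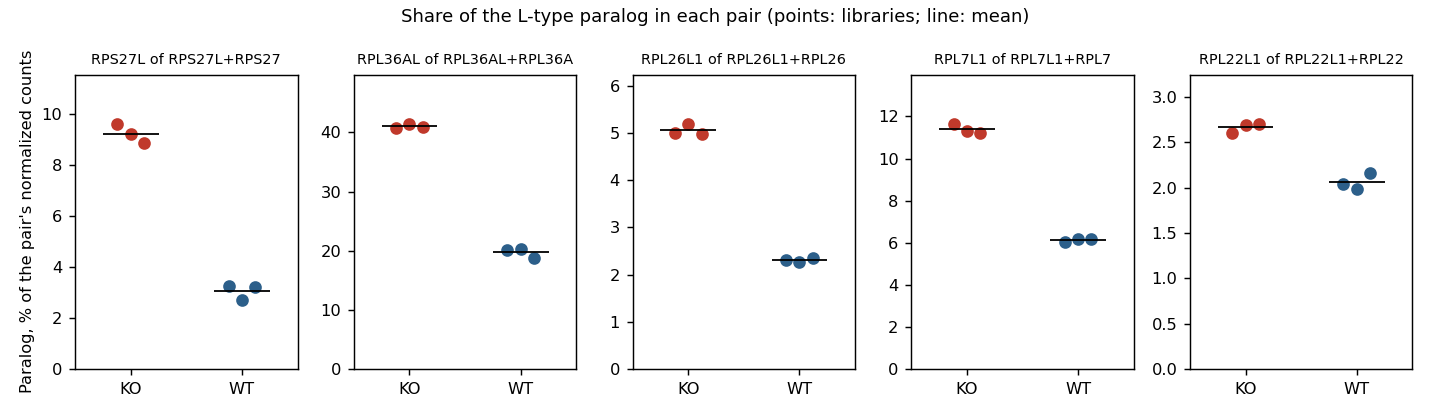
Share of the L-type paralog (% of the normalized counts of paralog and main gene together) in 5 pairs, with KO left of WT, a point per library and a line for the mean. The KO points lay above the WT points in each pair, with RPL36AL at 40.7 to 41.5% in KO and 18.7 to 20.4% in WT. The main gene of each pair was lower in KO, and RPL22L1 itself was not called.

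Reads can be assigned to either gene of a pair only where the copies differ. The coding sequences of RPS27 and RPS27L are printed since this pair changed most, from GENCODE 29 on GRCh38 and without the stop codon, with the 56 differing bases in capitals. The copies were identical at 77.8% of 252 bases, and the longest stretch they shared was 20 bases.
RPS27, chromosome 1: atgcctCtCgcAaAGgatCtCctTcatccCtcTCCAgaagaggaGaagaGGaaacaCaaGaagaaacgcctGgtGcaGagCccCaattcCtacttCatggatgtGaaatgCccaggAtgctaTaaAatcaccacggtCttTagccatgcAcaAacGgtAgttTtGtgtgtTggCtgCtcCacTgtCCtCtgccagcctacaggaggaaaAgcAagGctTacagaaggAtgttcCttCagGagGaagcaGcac
RPS27L, chromosome 15: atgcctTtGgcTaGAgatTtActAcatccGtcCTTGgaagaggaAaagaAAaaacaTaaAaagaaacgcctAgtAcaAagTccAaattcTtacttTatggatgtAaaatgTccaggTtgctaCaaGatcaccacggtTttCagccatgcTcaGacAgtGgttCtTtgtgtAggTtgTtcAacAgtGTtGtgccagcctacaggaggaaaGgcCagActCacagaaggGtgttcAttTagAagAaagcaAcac
Among the other pairs, coding identity was 94.8% for RPL39L and RPL39, 89.9% for RPL36AL and RPL36A with a longest shared stretch of 60 bases, 84.1% for RPL26L1 and RPL26, 75.2% for RPL3L and RPL3, 65.4% for RPL22L1 and RPL22, and 54.0% for RPL7L1 and RPL7. How reads that match both copies were treated is not given in the sources used here. Untranslated parts, whose reads count too, were not compared, so that coding identity does not give the share of reads that match both copies.

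Within WT, 1 library set most of the spread. WT3 was the lowest WT library for 77 of the 84 members, and KO2 was the highest KO library for 79. The coefficient of variation over the 77 main genes had a median of 2.41% in KO and 7.40% in WT. Over the main genes, WT3 stood at a median of 0.878 of the mean of WT1 and WT2, with a range of 0.667 in RPS29 to 1.07 in RPL41. RPS29, a small 40S protein, had 13281, 14147 and 13436 in KO, against 24735, 26913 and 17234 in WT and the lowest WT value lay in WT3, still above KO. RPL41, which encodes the shortest ribosomal protein, had 27935, 28105 and 28706 in KO, against 45815, 43558 and 47630.1 in WT. Across the 77 main genes, which share the same libraries, the deviation of WT3 was larger in genes with shorter coding sequences (Spearman's rho 0.66 with the log2 coding length). The part of coding length, RNA quality or library preparation in this was not tested. Without WT3, 77 members were lower (29.4% of all genes) and the median log2 fold change was -0.59.

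Fold changes were only weakly related to other properties of the main genes. Spearman's rho with the log2 coding length was -0.32 over 77 genes, and -0.22 when the fold changes were computed without WT3. It was -0.13 with the GC content of the principal transcript and -0.17 with the log2 mean normalized count. Coding sequences of the main genes ranged from 75 to 1281 bases with a median of 456 bases, against 1380 bases over all genes with a length. In the supplement of the study, relative exon values of ACTB were higher in KO toward the end of the transcript and lower toward its start. The part of a difference in coverage along transcripts between KO and WT in these fold changes was not tested.

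The start windows were searched for pyrimidine runs. RefSeq starts were found for 67 of the 84 members. A run of at least 8 C or T letters on the strand of the gene, within 15 bases of the start, was present in 53 of these (79.1%), against 16.5% of the 27305 genes of the RefSeq table of starts, which also holds genes that were not measured here. It was present in 49 of 59 members that were lower (83.1%), in 2 of 5 that were higher, which were RPS26 and RPL36AL, and in 2 of 3 that were not called, while RPL3 had none. A run of at least 5 letters beginning with C and lying within 5 bases of the start, a definition made after the sequences had been seen, was found in 56 members (83.6%), against 32.1% of the RefSeq table. This second run was found in 53 of 59 members that were lower (89.8%), in 1 of 5 that were higher and in 2 of 3 that were not called. RPL36AL was the higher member with such a run, so that RPS26 held a run by the first definition and not by the second, and RPS27L, RPL26L1 and RPL7L1 by neither. RPS26 has a run of 5 letters beginning with C just past the limit of 5 bases, so that the 1 of 5 rests on this limit. RPL21 holds a long run and RPS4X none, and neither was called. These are matches of letters in short windows at annotated starts, and the starts in use in these cells were not measured.

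Ribosomal protein genes share sequence with many processed pseudogenes and overlap other genes. The table listed 190 pseudogene entries of 59 members, of which 188 were tested, 67 were lower and 13 higher, with a median log2 fold change of -0.40. Over all genes tested, 30.3% were lower and 30.3% higher, so that the share of lower entries was near that of all genes and the share of higher entries was smaller. Together the pseudogene entries held 0.131 to 0.138% of reads in KO, against 0.183 to 0.199% in WT. Pseudogene entries held a median of 0.467% of the normalized counts of a member and its entries, with the highest share, 24.2%, at RPL9. Of the members, 35 overlap an exon of another gene on the same strand, mostly of small nucleolar RNAs, and for RPL17, RPL36A and RPS10 of readthrough genes. Counts of these members are uncertain to that extent.

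Ribosomal components outside the naming rule did not move as 1 block. RACK1, the 40S scaffold protein, had 97175, 100278 and 95880.0 in KO, against 166243, 170045 and 145716 in WT (log2 fold change -0.71 ± 0.06, adjusted p = 4.80e-09, limma). FAU, which encodes a 40S protein fused to a ubiquitin-like protein, had 30956, 32467 and 31280.4 in KO, against 32448, 34591 and 27467 in WT (log2 fold change 0.0094 ± 0.063, not called). The libraries of FAU overlapped between the groups.

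All 15 genes of the list of other TOP mRNAs, most of them of translation factors, were lower (30.3% of all genes), with a median log2 fold change of -0.59. The EEF1G entry had by far the fewest counts of the list, with 221, 249 and 178 in KO, against 336, 329 and 249 in WT. Whether that entry holds the full expression of EEF1G was not tested. EIF3L, a subunit of initiation factor eIF3, had 2055, 2145 and 2032 in KO, against 5422, 5371 and 5427 in WT (log2 fold change -1.38 ± 0.044, adjusted p = 2.80e-15, limma). EEF2, the elongation factor that moves the ribosome along the mRNA, had 90306, 89025 and 89594 in KO, against 222441, 248099 and 222708 in WT (log2 fold change -1.36 ± 0.057). EEF1A1, which brings aminoacyl-tRNA to the ribosome and had the most counts of the list, had 476352, 483577 and 472237 in KO, against 998119, 955127 and 1025390.0 in WT (log2 fold change -1.06 ± 0.073). Values of these 3 genes were more negative than that of RPL3, and none overlapped between the groups.

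Of 15 regulators of the mTOR and LARP1 axis, 3 were lower, 6 were higher and 6 were not called (median 0.055), a share called close to the 60.6% of all genes. MLST8, a subunit of the mTOR complexes, had 5051, 4809 and 5104 in KO, against 8898, 10131 and 9256 in WT (log2 fold change -0.92 ± 0.049). EIF4EBP1, an inhibitor of cap-dependent initiation that mTOR phosphorylates, had 6149, 6057 and 6089.9 in KO, against 9517, 10325 and 9335 in WT (log2 fold change -0.67 ± 0.045). LARP1, the protein that binds TOP mRNAs, had 19332, 19161 and 20097 in KO, against 15038, 15522 and 15010.3 in WT (log2 fold change 0.36 ± 0.042). MLST8 and EIF4EBP1 were thus lower and LARP1 higher, without overlap of the groups. The activity of mTOR was not measured.

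Lists of genes for making ribosomes had positive medians, and their counts stand against 30.3% of all genes lower and 30.3% higher. Of 15 RNA polymerase I factors, which serve the transcription of ribosomal RNA, 3 were lower, 9 were higher and 3 were not called (median 0.26). CD3EAP, a polymerase I subunit, had 1944, 1889 and 1863 in KO, against 1212, 1233 and 1095 in WT (log2 fold change 0.69 ± 0.056), TAF1B, a promoter factor, had 221, 235 and 223 in KO, against 159, 128 and 143 in WT (log2 fold change 0.66 ± 0.12), and TAF1D, the factor with the most counts, had 9501, 9666 and 9409.8 in KO, against 11663, 11077 and 10992 in WT (log2 fold change -0.24 ± 0.042). Of 53 entries for assembly factors, 38 were higher, 7 were lower and 8 were not called (median 0.37). EBNA1BP2, a nucleolar 60S assembly factor, had 6835, 7206 and 6832 in KO, against 3200.2, 3239 and 2971 in WT (log2 fold change 1.15 ± 0.046, adjusted p = 9.12e-14, limma). RSL24D1, whose yeast counterpart holds the place of RPL24 on the precursor of the 60S subunit, went down, with 5258, 5555 and 5239 in KO, against 12846, 12316 and 10925 in WT (log2 fold change -1.17 ± 0.053, adjusted p = 5.23e-13, limma). NCL, the abundant nucleolar protein nucleolin, had 57003, 57984 and 58074 in KO, against 50715, 51432 and 50080.3 in WT (log2 fold change 0.19 ± 0.044).

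Of 7 chaperones of single ribosomal proteins, none was lower, 5 were higher and 2 were not called (median 0.26). BCCIP, a partner of RPL23, had 7185, 7125 and 6892 in KO, against 4270.4, 3921 and 3954 in WT (log2 fold change 0.80 ± 0.045), and HEATR3, which imports RPL5, had 2708, 2640.4 and 2828 in KO, against 1647, 1596 and 1623 in WT (log2 fold change 0.75 ± 0.048). Both were higher in every KO library while the proteins they serve had lower mRNA. Among 78 genes of mitochondrial ribosomal proteins, which form a separate ribosome, 51 were higher, 8 were lower and 19 were not called (median 0.32). Counts of this list and of the chaperones stand against 30.3% of all genes lower and 30.3% higher. MRPS7 had 5070.3, 5299.9 and 5077 in KO, against 2481, 2545 and 2459 in WT (log2 fold change 1.04 ± 0.044), MRPL27 had 2761, 2883 and 2800.0 in KO, against 1596, 1736 and 1448 in WT (log2 fold change 0.82 ± 0.058), and MRPS34, the one with the most counts, had 17118, 17162 and 17598 in KO, against 12791, 13856 and 12260.5 in WT (log2 fold change 0.42 ± 0.047). The difference between cytosolic and mitochondrial ribosomal proteins was not tested as a difference of lists.

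**Figure D5:**
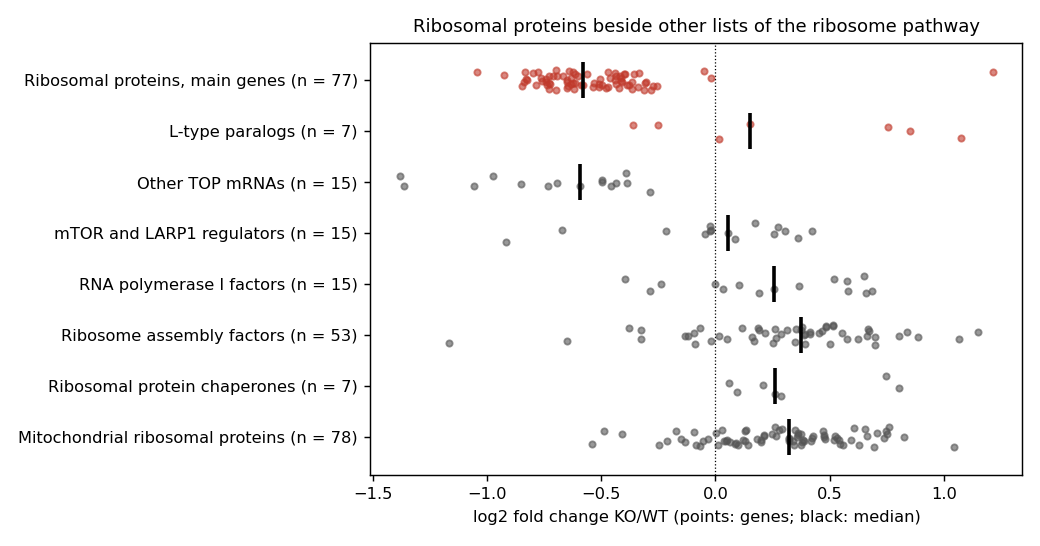
Log2 fold changes (KO/WT, x axis) of single genes in the 77 main genes and 7 L-type paralogs (red) and in 6 other lists of the ribosome pathway (grey), with a black line for each median. Medians were -0.58 for the main genes, 0.15 for the paralogs and -0.59 for the other TOP mRNAs, against 0.26 to 0.37 for the RNA polymerase I, assembly, chaperone and mitochondrial lists, and under quantile normalization RPL21, RPS4X and RPL27A were higher.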

How the data were processed

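RNA was sequenced from akirin2 KO and WT HL60 cells, 3 libraries each. Deposited by the authors were signal values, which are gene read counts scaled by 1 size factor per library. GRCh38, DESeq2, featureCounts, Subread 1.5.2 and Trimmomatic 0.36 are named, without roles, in the submitters' processing notes. What aligner, annotation and strand setting were used is not given in the sources used here. Columns with log2 fold changes and p-values of the authors' own comparison are in the deposited table as well and were not used. In each library 100% of values were whole multiples of the value of 1 read (tolerance 0.01).

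From log2(normalized count + 1), groups were compared with limma 3.58.1 (lmFit, eBayes with a variance trend) under R 4.3.3. Tests were two-sided and p-values were adjusted by Benjamini-Hochberg over the 17425 genes whose mean reached 10 normalized counts. A gene was called at an adjusted p under 0.05. Fold changes on this scale understate those of low genes. The steps were tested on simulated data. By identifier, 17420 genes (99.55%) were found in GENCODE 29. Of the genes, 59 carried no name and 15 names were shared, so that EMG1 has 2 entries. Paralog ratios were compared by exact permutation over libraries. Levels per kilobase use the coding length, although reads in untranslated parts count too.

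The members, lists and rules were chosen with earlier results of these data known. Named members were the 6 most negative and 6 most positive, the 4 with most counts per subunit, those not lower, each paralog with its main gene, RPSA, the stalk proteins, RPL5, RPL11, RPL23, RPS19, RPS6 and RPS4X, and for each other list the 2 genes that changed most and the 1 with most counts. Some genes that this rule takes are not reported here. RPS29, RPL9, RPL17, RPL24, RPL27A, RPL32, RPL35, RPL41, RPS10, RPS18 and TSR2 were named after their values were seen. Alternatives were other pseudocounts, count minimums and scalings, edgeR 4.0.16 and DESeq2 1.42.0 on the recovered reads, no variance trend, a replicate block, left-out libraries, length and GC trends, and members without pseudogene entries. Summaries and plots used matplotlib 3.10.9, scipy 1.17.1, numpy 2.4.6 and pandas 2.3.3 under Python 3.11.15.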

Additional observations from a re-analysis of the deposited data

How the results depend on the processing

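The number of members lower in KO was 72 to 77 when libraries were left out and 73 or 74 under the other settings with all 84 members, except quantile normalization with 66. It was 18 of 25 when members with a listed pseudogene were left out. These 25 held all 7 L-type paralogs, none of which was called lower, and every main gene among the 25 was lower. Under quantile normalization 8 members were higher, and the medians were -0.28 over members, -0.31 in the large and -0.25 in the small subunit. The median was -0.44 over the 25 members without a listed pseudogene and, after removal of a trend on coding length (an alternative chosen after seeing the data), -0.61 over members and -0.58 in the large subunit. Without libraries, members had medians of -0.59 to -0.48, the large subunit -0.57 to -0.45 and the small subunit -0.61 to -0.53. The components outside the naming rule had 1 to 2 called genes, 2 of them without WT3. edgeR on the recovered reads called 10611 of 17425 genes and 74 members lower, and DESeq2 called 73 members lower. The causes of these differences were not tested.

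Signs turned for some named genes. Over fits that left out 1 library, RPL22L1 had log2 fold changes of -0.036 to 0.061, RPL21 -0.15 to 0.0064, RPS4X -0.087 to 0.015 and FAU -0.086 to 0.080. RPL22L1 also had -0.11 after removal of a GC trend and -0.088 after removal of a coding length trend, and FAU -0.090 after removal of a coding length trend. RPL21 had 0.010 under equal library totals, 0.28 under quantile normalization, 0.015 without WT1 and KO3 and 0.0071 after removal of a transcript length trend, and RPS4X had 0.037, 0.24, 0.017 and 0.036 in these settings. Under quantile normalization, RPLP2 had 0.0015, RPS18 0.00046, RPL11 0.025 and RPL35 0.061, none of them called, and RPL27A had 0.087 and was called higher. RPS4X was called lower after removal of a GC trend (-0.13). Besides these genes and RPL32, calls were lost by RPL27A (without WT1 and KO3), RPL35 (GC trend), RPL7L1 (GC trend), RPS24 (quantile normalization) and NCL (without WT1 and KO3).

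Same-numbered KO and WT libraries had correlations of deviations of -0.073, 0.052 and -0.075, so that no deviation shared by number was seen. Whether the libraries were handled in pairs cannot be told from these values. With a replicate block, 74 members were lower, 5 were higher and 10394 of all genes were called, and no member changed its call. Depth limited only RPL3L, with at least 19 reads in each library, and RPL39L. The main genes had at least 8417 reads.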
